A study of Homo sapiens with 4 samples.

Results

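SKUT1 is 1 of 4 human leiomyosarcoma cell lines in this series, and its single library was set against those of RKN, SKLMS1 and SKN. Leiomyosarcoma is a sarcoma, a cancer of connective tissues, whose cells show traits of smooth muscle. The labels describe each of the 4 samples as such a line, untreated and grown in DMEM (a standard culture medium) with serum, glutamine, penicillin and streptomycin. Poly(A) RNA was sequenced once from each line, so every group holds 1 library, nothing is known of the spread between cultures, and all differences below are sizes without a test. The unit is FPKM, a read density scaled to gene length and library size, so levels of different genes can be set side by side. Of 23577 usable genes in the table, 13713 reached an FPKM of 1 in some line and were compared. A difference is log2(FPKM + 1) in SKUT1 minus the mean of the same quantity in the other 3 lines, and a difference of 1 is called 2-fold here. Counts of list members given as above or below refer to this mean, and a list's median is the median of its members' differences. A gene may have passed the filter through SKUT1 alone, so these are descriptions of the members that passed. Where a median (of 0.3 or more in size) or a count of 3 or more moves by over 1.5 times, the bracket after it also gives the median over all members found in the table, without the filter, and the values without 1 comparison line or, for counts, on the TPM scale. The log2(FPKM + 1) scale understates the difference of genes with low values. A gene name without a further remark is taken as the table spells it.

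The differences ran in both directions. SKUT1 was at least 2-fold above the mean of the other lines in 2454 genes (17.9% of those compared) and at least 2-fold below it in 1791 (13.1%). A gap of at least 4-fold to every other line was found above for 557 genes (4.06%) and below for 113 (0.824%). SKUT1 was the highest of the 4 lines by any margin in 30.8% of genes and the lowest in 27.9%. Of the 557 genes far above, the next line was SKLMS1 for 245, SKN for 158 and RKN for 154, and 42 belonged to the list of 57 measured matrix genes. The median difference over all genes was -0.03. When each column was rescaled to the same sum (TPM), this median moved to -0.31, the genes at least 2-fold above and below became 2060 and 3140, and those at least 4-fold from every other line became 543 and 227. Every list below can be read against that shift. The count of 113 also depends on each comparison line, being 220 without RKN, 187 without SKLMS1 and 209 without SKN.

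The sum of FPKM was 619584 in SKUT1 and 446954 to 538300 in the other lines. The table gives no read totals, so the depth behind each value is unknown here. Short or unplaced RNAs made up 34 of the 113 low genes, and 31 of the 113 were listed at 0 in SKUT1. All 30 genes listed at 0 in SKUT1 with an FPKM of 5 or more in each other line were of this short or unplaced kind. An exact 0 can be a failed estimate, since the ribosomal protein gene RPS28 and the matrix genes COL1A1 and FN1 were also listed at 0 in SKUT1, so no fold is given for such values. Zeros are still part of the counts of genes below. With genes listed at 0 in SKUT1 left out, the 1791 genes at least 2-fold below the mean became 1544.

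The label of a smooth muscle tumour line was checked against marker genes. Of 16 measured smooth muscle genes, 10 were at least 2-fold above and none below (median 2.17). The actin-binding gene TAGLN was at 3816 in SKUT1, 45.5 in RKN, 531 in SKLMS1 and 5.82 in SKN. ACTA2, smooth muscle actin, was at 1085 in SKUT1, 84.7 in RKN, 127 in SKLMS1 and 1.37 in SKN. CNN1, a calponin of contractile cells, was at 86.4 in SKUT1, 2.45 in RKN, 29.6 in SKLMS1 and 0.228 in SKN. The contractile genes SYNPO2 (23.1 against at most 0.281 elsewhere), ACTG2 (19.4 against at most 2.32 elsewhere) and LMOD1 (14.9 against at most 1.25 elsewhere) were also highest in SKUT1, whereas MYLK, the myosin light chain kinase, was at 31.5 in SKUT1, 0.805 in RKN, 65.7 in SKLMS1 and 11.8 in SKN. A pair of late markers was low in all 4 lines: MYH11, the smooth muscle myosin heavy chain, was 1.15 against at most 0.415 elsewhere, and DES (desmin) was 0.66 in SKUT1, 1.1 in RKN, 0.191 in SKLMS1 and 0.347 in SKN. MYOCD, the cofactor that drives contractile smooth muscle genes, was 5.16 against at most 0.0303 elsewhere. The smooth muscle list held 1.53% of the summed FPKM of SKUT1 and 0.111 to 0.682% of that of the other lines.

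Genes of fibroblasts stood higher still. Of 16 measured fibroblast markers, 15 were at least 2-fold above and none below (median 6.88), and the list held 2.23% of the summed FPKM in SKUT1 against 0.000736 to 0.0613% elsewhere. The matrix list held 7.80% against 0.248 to 1.06%. That share counts COL1A1, a chain of type I collagen, and FN1, fibronectin, as 0 in SKUT1. COL1A1 was 7.06 in RKN, 939 in SKLMS1, 0.447 in SKN and listed at 0 in SKUT1, and FN1 was 0.266 in RKN, 651 in SKLMS1, 2960.4 in SKN and listed at 0 in SKUT1. Whether these zeros are failed estimates was not tested. The 4 genes used to mark SKUT1 were chosen with earlier results of these data known, so their levels are no separate evidence. POSTN, COL1A2 and PRRX1 are also among the fibroblast markers counted above, and CDKN1A is not. POSTN, a secreted matrix protein, was at 2389.8 in SKUT1, 0.0406 in RKN, 2.11 in SKLMS1 and 0.0135 in SKN. COL1A2, the partner chain of COL1A1, was at 5096 in SKUT1, 98.3 in RKN, 77.5 in SKLMS1 and 0.113 in SKN. PRRX1, a homeobox factor of mesenchymal cells, was at 115 in SKUT1, 0.117 in RKN, 0.0171 in SKLMS1 and 0.0207 in SKN. CDKN1A, the p21 inhibitor of cyclin-dependent kinases, was at 348 in SKUT1, 5.92 in RKN, 9.94 in SKLMS1 and 12.8 in SKN. In each of the 4 genes SKUT1 lay far above all the other lines.

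Markers of other cell types were unequal. Of 8 measured pericyte genes, 5 were at least 2-fold above and 1 below (median 2.14, but 1.15 over all 10 found), and the whole list summed to 311 in SKUT1 and 28.8 to 142 elsewhere. NOTCH3 was 108 in SKUT1, NDUFA4L2 93 and PDGFRB 70.7, while RGS5 was 3.48 in SKUT1 and 127 in RKN. Of 11 measured cartilage, tendon and bone genes, 3 were at least 2-fold above and 5 below (median -0.68, mean 1.14, but -0.069 over all 19 found and 0.07 without SKLMS1, with 3 below without SKLMS1). The matrix genes COMP (1119.9) and ACAN (403) made up most of that list's sum of 1539 in SKUT1, against 58.3 to 84.8 elsewhere, and the cartilage factor SOX9 was 0.591 and COL2A1 listed at 0. Of 14 measured epithelial genes, 5 were at least 2-fold above and 3 below (median 0.48, but -0.0016 over all 20 found, 0.84 without SKLMS1 and 0.045 without SKN). KRT14 was 474 in SKUT1 against at most 0.0414 elsewhere, DSP (desmoplakin) 201 against at most 10.9 and KRT7 141 against at most 6.05. KRT18 was 184 in SKUT1 but 283 in SKN, and KRT19 93.4 in SKUT1 but 146 in SKLMS1. KRT8 was low, at 9.42 in SKUT1, 1.99 in RKN, 268 in SKLMS1 and 265 in SKN, and the epithelial factor ELF3 was 0.0139 in SKUT1 and 19.7 in SKLMS1. The epithelial adhesion genes EPCAM and CDH1 were 0.432 and 1.2 in SKUT1. KRT14 shares sequence with other type I keratins. The endothelial receptor TEK was 39.6 and the endothelial factor ERG 7.07, but PECAM1 and CDH5 were 0.115 and 0.0416. CD68, a lysosomal protein abundant in macrophages, was 75.3, the leukocyte gene PTPRC 0.213, and the myeloid genes AIF1, TYROBP and LYZ were listed at 0. TUBB3, a tubulin of neurons, was 143 against 27.8 to 203 elsewhere, and the neurofilament NEFM 12.3 against at most 0.0422 elsewhere. The myogenic factors MYOD1, MYOG, MYF5 and MYF6 and the adipocyte gene ADIPOQ were listed at 0 in SKUT1. The table holds no genotypes, so whether the library carries the line its label names was not tested, nor was the part of these marker genes in the differences that follow.

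**Figure D1:**
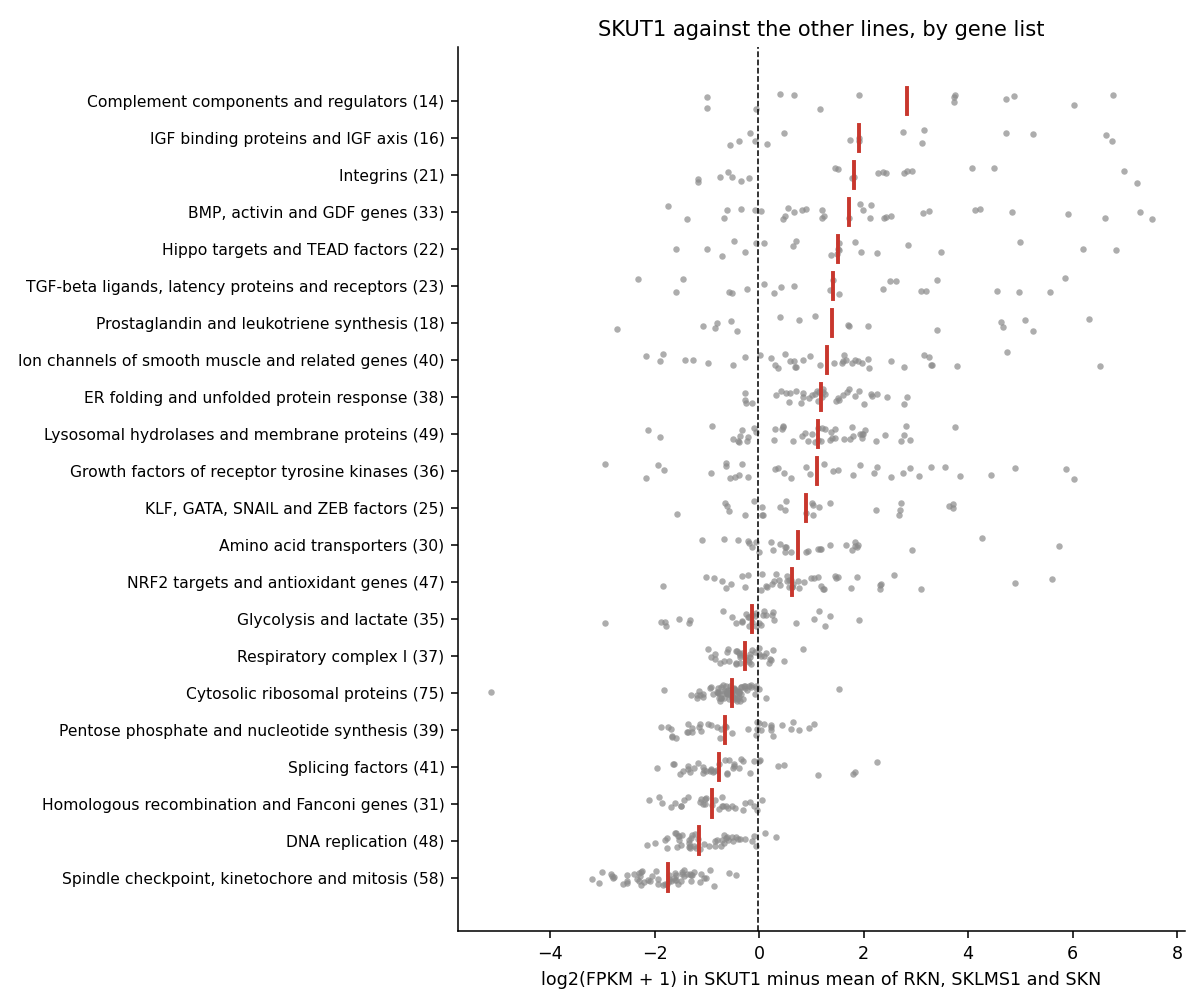
Difference of each measured member (grey point) between SKUT1 and the mean of the other 3 lines on the log2(FPKM + 1) scale, for 22 gene lists, with the number of measured members in brackets. Red bars are list medians, from 2.82 for the complement list (0.045 over all 26 found) to -1.74 for the mitosis list, and the dashed line is the median of all compared genes (-0.03). The lists were chosen from 78, and higher medians such as those of the fibroblast (6.88) and matrix (5.57) lists are not plotted.

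Several secreted regulators of growth factor signalling were high. Insulin-like growth factors act through IGF1R, and the IGF binding proteins hold them in the extracellular space until proteases such as the pappalysins release them. Of 16 measured genes of this axis, 10 were at least 2-fold above and none below (median 1.91). IGFBP7 was at 3300.2 in SKUT1, 0.289 in RKN, 625 in SKLMS1 and 44.2 in SKN. IGFBP3 was at 3096 in SKUT1, 1.39 in RKN, 1230.5 in SKLMS1 and 6.96 in SKN, so SKLMS1 came close to SKUT1 and RKN and SKN did not. IGFBP5 was at 232 in SKUT1, 9.3 in RKN, 20.2 in SKLMS1 and 0.0587 in SKN. STC2, a stanniocalcin that restrains pappalysins, was 564 against 2.25 to 104 elsewhere, and the pappalysin PAPPA 19.7 against at most 9.58 elsewhere. The binding proteins thus had SKUT1 as the highest line in all 3, with SKLMS1 next. The ligand IGF2 went the other way, at 1.21 in SKUT1, 1.66 in RKN, 6.94 in SKLMS1 and 21.1 in SKN. Its imprinted neighbour H19, a noncoding RNA, was 207 against at most 0.15 elsewhere. The receptor IGF1R was at 8.08 in SKUT1, 0.059 in RKN, 5.37 in SKLMS1 and 2.03 in SKN.

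BMP and activin signals are limited outside the cell by secreted antagonists, and several of these were high. Of 33 measured genes, 20 were at least 2-fold above and 2 below (median 1.73, but 1.04 over all 40 found). GREM1, a BMP antagonist, was at 2389.8 in SKUT1, 0.00795 in RKN, 24.6 in SKLMS1 and 139.9 in SKN. FST, follistatin, which binds activins, was 165 in SKUT1 against at most 3.57 elsewhere. Every other line lay below SKUT1 in both antagonists. Among the ligands, BMP6 was 62.1 against at most 0.0987 elsewhere and GDF15, a stress-responsive member of the family, 52.3 against at most 1.7 elsewhere. INHBA, the activin A subunit, was at 159.7 in SKUT1, 21.4 in SKLMS1, 210.0 in SKN and listed at 0 in RKN, with SKN above SKUT1. INHBB went the other way (0.191 in SKUT1, 42.8 in SKLMS1). The inhibitory SMADs, which act inside the cell, were high too, SMAD6 at 39.2 against 0.883 to 6.46 elsewhere and SMAD7 at 38.7 against 0.723 to 14.5 elsewhere. In the TGF-beta list, 13 were at least 2-fold above and 3 below (median 1.42, with 1 below without SKLMS1), of 23 measured. TGFB1 itself was 73.2 in SKUT1 and 73.0 in SKN, nearly the same value, and TGFB2 was at 1.29 in SKUT1, 5.13 in RKN, 42.5 in SKLMS1 and 0.215 in SKN.

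WNT signals are likewise held back by secreted proteins. DKK1, which blocks the LRP co-receptors, was at 517 in SKUT1, 4.95 in RKN, 5.62 in SKLMS1 and 9.92 in SKN. SFRP4, a decoy for WNT ligands, was at 63.2 in SKUT1, 1.18 in SKLMS1 and listed at 0 in RKN and SKN. Other secreted antagonists were not highest in SKUT1. DKK3 was at 65.5 in SKUT1, 16.5 in RKN, 109 in SKLMS1 and 238 in SKN. SFRP1 was at 10.1 in SKUT1, 11.96 in RKN, 12.4 in SKN and listed at 0 in SKLMS1. Of 6 measured secreted antagonists, 3 were at least 2-fold above and none below (median 1.91, but -0.025 over all 13 found). Of the 25 ligands, Frizzleds and co-receptors measured, 13 were at least 2-fold above and 2 below (median 1.10, but 0.012 over all 37 found and 0.73 without RKN, with 5 below on the TPM scale and 4 below without SKN), with FZD4 at 26.6 against 0.903 to 3.04 elsewhere and WNT7B at 0.0661 in SKUT1, 0.208 in RKN, 9.62 in SKLMS1 and 14.2 in SKN. The feedback genes of the pathway did not move together: 3 of 9 were at least 2-fold above and 3 below (median -0.40, mean 0.55, but -0.19 without SKLMS1), and AXIN2 was at 1.41 in SKUT1, 60.0 in RKN, 0.741 in SKLMS1 and 1.48 in SKN. Among Hedgehog genes, HHIP, which sequesters Hedgehog ligands, was 39.1 against 1.07 to 3.65 elsewhere, whereas the target gene GLI1 was 0.276 in SKUT1, 6.13 in RKN, 0.971 in SKLMS1 and 0.283 in SKN.

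**Figure D2:**
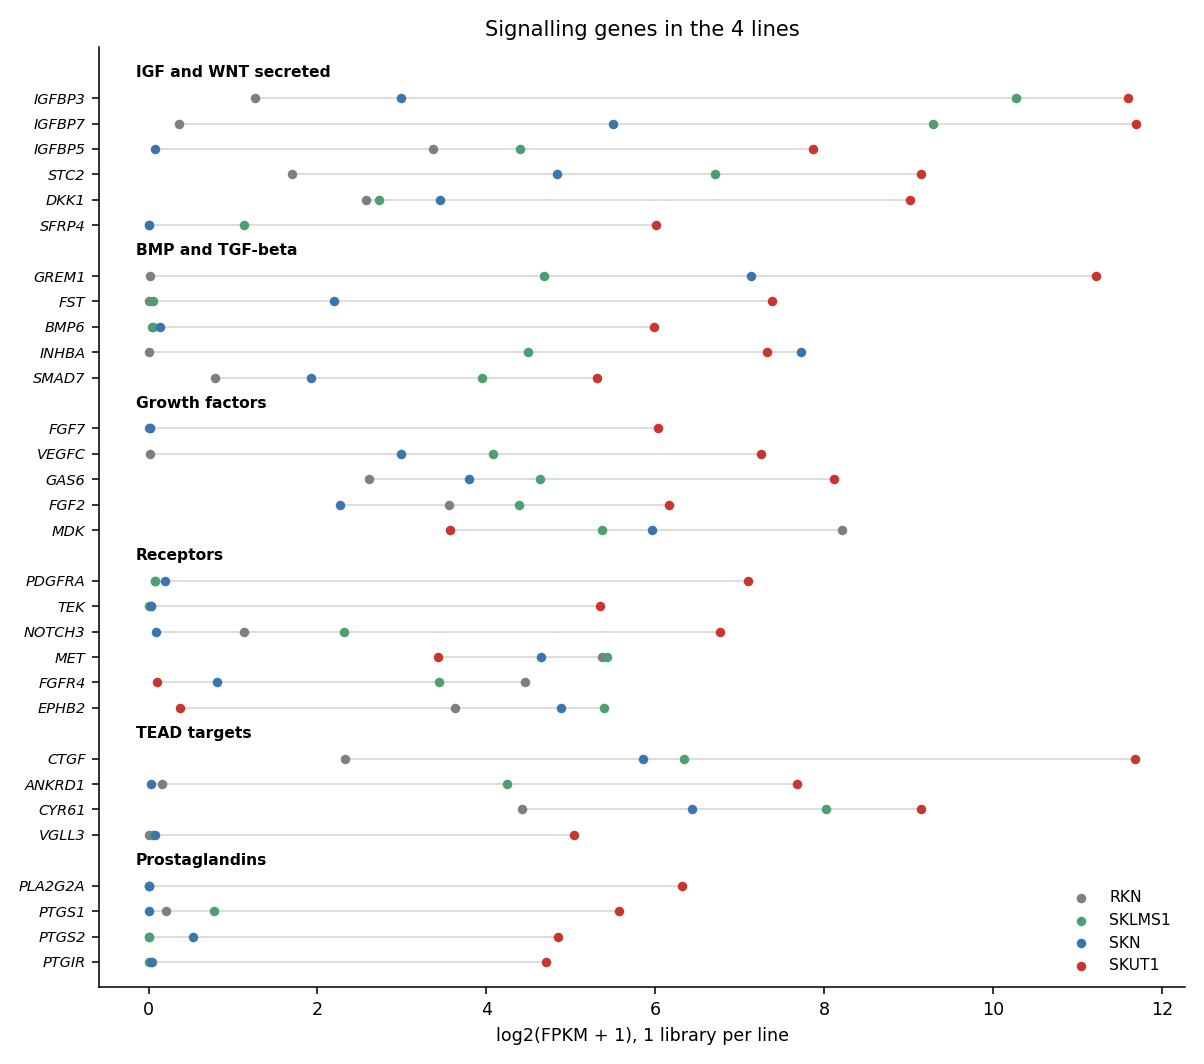
Level of 30 signalling genes as log2(FPKM + 1) in each of the 4 libraries (1 point per line, colours in the key). SKUT1 is the highest line in 25 of them, second to SKN for INHBA (160 against 210), and the lowest line for MDK, MET, FGFR4 and EPHB2. The genes were picked for large differences or after their values were seen, so these counts follow from the choice. Over all compared genes SKUT1 is the highest line in 30.8%.

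Receptor tyrosine kinases went in both directions, also within families. Of 36 measured, 16 were at least 2-fold above and 8 below (median 0.40, but 0.076 over all 48 found). PDGFRA, a receptor for platelet-derived growth factors, was at 136 in SKUT1, 0.0558 in RKN, 0.056 in SKLMS1 and 0.142 in SKN. TEK, the angiopoietin receptor, was at 39.6 in SKUT1, 0.0195 in RKN, 0.0173 in SKN and listed at 0 in SKLMS1, and its ligand ANGPT1 was 8.64 against at most 0.381 elsewhere. DDR2, a collagen receptor, was at 88.4 in SKUT1, 18.4 in RKN, 8.06 in SKLMS1 and 0.16 in SKN. EPHA5 was 50.9 against at most 2.33 elsewhere, and ROR1, a receptor for WNT5A, 20.9 against at most 2.45 elsewhere. SKUT1 was the highest line in each of these receptors. On the low side, EPHB2, an ephrin receptor, was at 0.298 in SKUT1, 11.3 in RKN, 40.9 in SKLMS1 and 28.5 in SKN. MET, the receptor of hepatocyte growth factor, was at 9.72 in SKUT1, 40.3 in RKN, 42.2 in SKLMS1 and 24.1 in SKN. FGFR4 was at 0.0718 in SKUT1, 21.1 in RKN, 9.87 in SKLMS1 and 0.754 in SKN, while FGFR1 was 42.8 against 14.4 to 24.9 elsewhere.

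Ligands of these receptors were more often high than low: 18 were at least 2-fold above and 4 below (median 1.11, but 0.48 over all 45 found), of 36 measured. FGF7, a fibroblast growth factor that acts on epithelial cells, was at 64.2 in SKUT1, 0.00869 in SKLMS1, 0.0105 in SKN and listed at 0 in RKN. VEGFC, a lymphatic growth factor, was at 152 in SKUT1, 0.0158 in RKN, 15.9 in SKLMS1 and 6.93 in SKN, and GAS6, the ligand of AXL, 277 against 5.13 to 23.9 elsewhere. AXL itself was 195 against 20.9 to 139 elsewhere. Midkine (MDK) was the reverse, at 10.9 in SKUT1, 296 in RKN, 40.4 in SKLMS1 and 61.1 in SKN, and PDGFB was at 0.0188 in SKUT1, 0.0136 in RKN, 45.5 in SKLMS1 and 0.995 in SKN, a value carried by SKLMS1.

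Other guidance and Notch genes moved singly. NTN4, a netrin, was 289.6 against at most 9.76 elsewhere, and SLIT3 167 against 0.583 to 15.8 elsewhere. SEMA4B, a class 4 semaphorin, was 2.19 in SKUT1, 17.6 in RKN, 70.9 in SKLMS1 and 90.2 in SKN. In that list of 44, 15 were at least 2-fold above and 7 below (median -0.21, mean 0.51, with 14 below on the TPM scale and 11 below without SKLMS1). NOTCH3, the Notch receptor of mural cells, was at 108 in SKUT1, 1.2 in RKN, 3.97 in SKLMS1 and 0.065 in SKN, although 5 of 21 Notch pathway genes were above and 5 below (median -0.47, but -0.19 over all 27 found and -0.21 without SKLMS1, with 9 below on the TPM scale).

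Genes that the TEAD factors are known to drive were high. TEAD proteins bind DNA and are activated by YAP1 and WWTR1 when the Hippo kinases are silent. Of 22 measured genes, 13 were at least 2-fold above and 1 below (median 1.5, with 3 below without RKN). CTGF, a secreted matricellular protein, was at 3279 in SKUT1, 4.03 in RKN, 80.3 in SKLMS1 and 56.9 in SKN. ANKRD1, a nuclear ankyrin protein, was at 204 in SKUT1, 0.117 in RKN, 18 in SKLMS1 and 0.0223 in SKN. CYR61, a relative of CTGF, was at 565 in SKUT1, 20.4 in RKN, 259 in SKLMS1 and 85.6 in SKN. In all 3 secreted or nuclear targets SKUT1 was highest and SKLMS1 next. VGLL3, a TEAD cofactor, was 31.7 against at most 0.0579 elsewhere. TEAD1 was 40.6 against 11 to 15.6 elsewhere and YAP1 57.1 against 9.93 to 37.8 elsewhere, but WWTR1 was at 27.2 in SKUT1, 16.6 in RKN, 53.7 in SKLMS1 and 18.4 in SKN and TEAD4 at 15.3 in SKUT1, 25.8 in RKN, 11.9 in SKLMS1 and 20.8 in SKN, within the range of the other lines.

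The promoters of the genes with the widest differences in that list are shown because each holds the TEAD letters GGAATG more than once. They are the bases before the RefSeq start in GRCh38.p14, 5′ to 3′ on the gene's strand, with GGAATG and, for CCN2 (the current name of CTGF), the TATA box TATAAA in capitals. The CCN2 stretch is chr6:131951373-131951552 and that of ANKRD1 chr10:90921088-90921312, both on the minus strand.
CCN2: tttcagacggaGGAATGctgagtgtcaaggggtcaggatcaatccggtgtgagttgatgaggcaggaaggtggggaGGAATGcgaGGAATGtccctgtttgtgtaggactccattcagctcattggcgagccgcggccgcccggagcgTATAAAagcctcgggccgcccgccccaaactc
ANKRD1: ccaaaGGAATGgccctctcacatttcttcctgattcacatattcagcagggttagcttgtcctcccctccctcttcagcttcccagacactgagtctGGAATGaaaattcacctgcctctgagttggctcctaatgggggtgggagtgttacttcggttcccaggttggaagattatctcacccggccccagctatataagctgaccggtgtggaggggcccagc
In CCN2 the letters begin 169, 104 and 95 bases before the start, with the TATA box at 32, and in ANKRD1 they begin 220 and 128 bases before it. Counted on both strands in RefSeq windows of 300 bases (250 before and 50 after the start), GGAATG occurred in 9 of 25 windows of the list (36.0%, 16 of 22 genes matched), in 11.5% of the 14434 windows of the compared genes and in 14.0% of all 35116 windows in the reference table. Other lists came close, with GGAATG in 34.8% of the 23 windows of the HOX list and 30.4% of the 23 of the smooth muscle list. A match is a description of the letters, and the list holds few windows.

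Prostaglandin genes formed a further high group. Phospholipases free arachidonic acid from membranes, the cyclooxygenases PTGS1 and PTGS2 oxidise it, and separate synthases make each prostaglandin. Of 18 measured genes, 10 were at least 2-fold above and 2 below (median 1.39, but 0.39 over all 24 found, with 4 below on the TPM scale). PLA2G2A, a secreted phospholipase, was at 78.8 in SKUT1 and listed at 0 in RKN, SKLMS1 and SKN. PLA2G4A, the cytosolic one, was 64.8 against at most 3.61 elsewhere. PTGS1 was at 46.6 in SKUT1, 0.155 in RKN, 0.715 in SKLMS1 and listed at 0 in SKN. PTGS2 was at 27.9 in SKUT1, 0.00756 in SKLMS1, 0.441 in SKN and listed at 0 in RKN. No other line was above 3.61 for these 4 enzymes. PTGIS, prostacyclin synthase, was at 132 in SKUT1, 0.0878 in RKN, 146 in SKLMS1 and listed at 0 in SKN, so SKLMS1 stood slightly above SKUT1, and the prostacyclin receptor PTGIR was 25 against at most 0.0315 elsewhere. ALOX5AP, of the leukotriene branch, was low, at 0.0584 in SKUT1, 0.0423 in RKN, 1.95 in SKLMS1 and 108 in SKN, a difference that rests on SKN.

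Receptors and messengers of smooth muscle tone were mixed. Of 35 measured receptors, 16 were at least 2-fold above and 4 below (median 0.86, but 0.42 over all 52 found). OXTR, the oxytocin receptor, was at 38.3 in SKUT1, 0.257 in RKN, 1.53 in SKLMS1 and 0.654 in SKN, and F2R, a thrombin receptor, 77.2 against 0.345 to 17.2 elsewhere. The adenosine receptors were low, ADORA2A at 0.104 in SKUT1, 5.34 in RKN, 2.94 in SKLMS1 and 5.58 in SKN, ADORA1 at 0.782 in SKUT1, 9.8 in RKN, 8.11 in SKLMS1 and 2.45 in SKN and ADORA2B at 4.72 in SKUT1, 11.7 in RKN, 27.8 in SKLMS1 and 7.69 in SKN. Among 25 cyclic nucleotide genes, 9 were at least 2-fold above and 4 below (median 0.84, but 0.15 over all 32 found and 0.22 without RKN, with 7 below on the TPM scale), and the phosphodiesterases PDE1A (15.1 against at most 0.0896 elsewhere), PDE1C (41.7 against at most 7.5 elsewhere) and PDE5A (9.9 against at most 0.723 elsewhere) and the kinase PRKG1 (7.28 against at most 0.175 elsewhere) were among the high ones. GUCY1B3, a subunit of soluble guanylate cyclase, was at 0.335 in SKUT1, 0.496 in RKN, 38 in SKLMS1 and 1.37 in SKN.

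Of the ion channels, 21 were at least 2-fold above and 5 below (median 1.30, but 0.093 over all 65 found, with 3 below without SKLMS1), of 40 measured. KCNK2, a stretch-sensitive potassium channel, was at 92.4 in SKUT1, 0.0211 in SKLMS1, 0.0128 in SKN and listed at 0 in RKN. KCNE4, a regulatory subunit of potassium channels, was 27.3 against at most 0.109 elsewhere, and PIEZO1, a mechanically gated channel, 62.8 against 13.4 to 21.4 elsewhere. KCNMA1, the large-conductance potassium channel of smooth muscle, was lower, at 27.7 in SKUT1, 57.6 in RKN, 55 in SKLMS1 and 55.3 in SKN.

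Integrins, the receptors that hold cells to matrix, were mostly high, 14 were at least 2-fold above and 2 below (median 1.82), of 21 measured. ITGA11, a collagen-binding subunit, was at 278 in SKUT1, 0.0432 in RKN, 2.72 in SKLMS1 and 0.655 in SKN. ITGB5 was at 360.4 in SKUT1, 12.5 in RKN, 25.9 in SKLMS1 and 10.3 in SKN, and ITGB1, the common partner of most alpha subunits, 1240.2 against 129 to 442 elsewhere. ITGA3, a laminin-binding subunit, was lower, at 28.6 in SKUT1, 10.1 in RKN, 95.8 in SKLMS1 and 271 in SKN, a value within the range of the others. Of 19 cadherins and protocadherins, 10 were at least 2-fold above and 2 below (median 1.31, but 0.03 over all 40 found). CDH11, a mesenchymal cadherin, was 188 against 0.181 to 3.2 elsewhere, and CDH2 (N-cadherin) 128 against 0.825 to 63 elsewhere. The gamma protocadherins, which share their last exons and so cannot be split with certainty, were at least 2-fold above in 11 of 17 measured genes and below in none.

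Of the secreted and surface complement genes, 9 were at least 2-fold above and 1 below (median 2.82, but 0.045 over all 26 found), of 14 measured. C1S, a protease that starts the classical pathway, was at 287 in SKUT1, 1.59 in RKN, 5.03 in SKLMS1 and 0.172 in SKN. The surface inhibitor CD59 was 463 against 19.7 to 97.1 elsewhere. Cytokines and chemokines were more often low: 8 of 26 were at least 2-fold above and 13 below (median -0.78, but -0.014 over all 36 found, -1.62 without RKN, -0.30 without SKLMS1 and -0.0026 without SKN, with 7 below without SKN). CXCL12, a chemokine of stromal cells, was at 214 in SKUT1, 32.8 in SKLMS1, 0.386 in SKN and listed at 0 in RKN, CCL2 at 94.4 in SKUT1, 22.9 in RKN, 0.24 in SKLMS1 and 0.291 in SKN and CXCL1 at 1.65 in SKUT1, 43.8 in RKN, 0.775 in SKLMS1 and 641 in SKN. Interferon-stimulated genes had no common direction over 39 measured, 11 above and 7 below (median -0.02, mean 0.13, with 7 above without SKN, 14 below on the TPM scale and 13 below without SKLMS1). OAS3, a sensor of double-stranded RNA, was at 0.356 in SKUT1, 25.1 in RKN, 3.0 in SKLMS1 and 14.6 in SKN.

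Of the antigen presentation genes, HLA-B was at 0.209 in SKUT1, 10.3 in RKN, 14.2 in SKLMS1 and 7.46 in SKN, while HLA-C was the reverse, at 4.82 in SKUT1, 0.0429 in RKN, 0.0705 in SKLMS1 and listed at 0 in SKN. HLA genes are polymorphic and near-identical to each other, so reads may be lost or shifted among them and these values are uncertain. B2M, the invariant partner of HLA class I, was 1879.7 against 869 to 1444 elsewhere. ERAP2, which trims peptides for HLA class I, was at 0.315 in SKUT1, 13.2 in RKN, 13.5 in SKLMS1 and 16.2 in SKN.

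Transcription factors set SKUT1 apart mainly by family members rather than whole families. HOX genes lie in 4 clusters and record position along the body axis. SKUT1 was the lowest line in 8 of 9 measured HOXB genes (27.9% of all compared genes) and the highest in 5 of 8 HOXC genes (30.8% of all). The summed FPKM of HOXB genes was 11.4 in SKUT1, 93.2 in RKN, 34.5 in SKLMS1 and 117 in SKN. That of HOXC genes was 160 in SKUT1, 34.5 in RKN, 31.0 in SKLMS1 and 8.72 in SKN. HOXB7 was at 0.282 in SKUT1, 22 in RKN, 10.9 in SKLMS1 and 36.6 in SKN. HOXC10 was at 55.9 in SKUT1, 6.98 in RKN, 9.03 in SKLMS1 and 0.606 in SKN, and HOXC8 was 33.7 against at most 1.72 elsewhere. In the HOXA cluster HOXA9 (9.53 against at most 1.3 elsewhere) and HOXA10 (16.4 against at most 6.06 elsewhere) were high and HOXA3 (0.695 in SKUT1, 0.281 in RKN, 11.5 in SKLMS1 and 6.22 in SKN) was not. Over all 34 measured HOX genes 11 were at least 2-fold above and 12 below (median -0.05), and 3 of those below were listed at 0 in SKUT1.

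**Figure D3:**
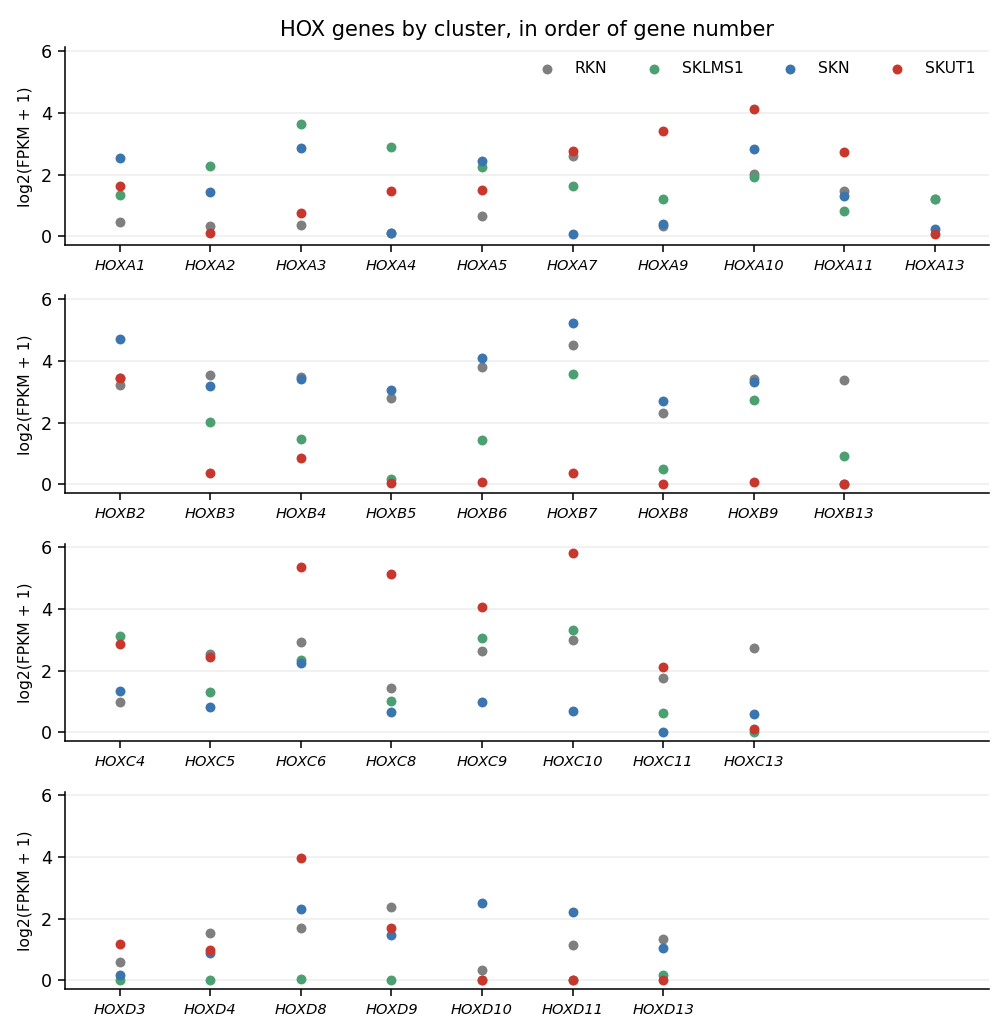
Level of the 34 measured HOX genes as log2(FPKM + 1) in each library (1 point per line, colours in the key), 1 panel per cluster, with genes in order of their number. SKUT1 has an FPKM of at most 0.299 in every HOXB gene except HOXB2 and HOXB4 and above the other lines at HOXC6, HOXC8, HOXC9, HOXC10 and HOXC11.

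Outside the clusters, 54 homeobox genes were measured, 15 at least 2-fold above and 12 below (median -0.10, mean 0.24). MEOX2, a homeobox factor of mesoderm, was at 38.1 in SKUT1 and listed at 0 in RKN, SKLMS1 and SKN. EMX2, a factor of the urogenital tract, was 6.07 against at most 0.0146 elsewhere. PITX1, a factor of the hindlimb, was low, at 2.68 in SKUT1, 18.1 in RKN, 15.4 in SKLMS1 and 25.2 in SKN. Of 25 KLF, GATA, SNAIL, ZEB and related zinc finger factors, 12 were at least 2-fold above and 1 below (median 0.90, but 0.41 over all 31 found and 0.56 without RKN, with 3 below without RKN). KLF4 was at 59.5 in SKUT1, 5.81 in RKN, 4.15 in SKLMS1 and 2.28 in SKN. The odd-skipped factors OSR1 (19.1 against at most 1.68 elsewhere) and OSR2 (21.4 against at most 1.78 elsewhere) and GATA6 (15.1 against at most 3.52 elsewhere) were also high. EBF2, a factor of mesenchymal progenitors, was 31.9 against at most 0.00635 elsewhere, and FOXS1, a forkhead factor of pericytes, 19.7 against at most 0.175 elsewhere. PAX8, a factor of Müllerian and kidney epithelium, was at 2.14 in SKUT1, 1.08 in RKN, 48.1 in SKLMS1 and 195 in SKN, and TFAP2C 0.184 in SKUT1, 2.21 in RKN, 9.26 in SKLMS1 and 28.9 in SKN.

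Among 26 nuclear receptors, 10 were at least 2-fold above and 1 below (median 0.48, but 0.026 over all 48 found, with 4 below on the TPM scale, 3 below without RKN and 4 below without SKN). NR3C1, the glucocorticoid receptor, was at 61.8 in SKUT1, 4.78 in RKN, 21.5 in SKLMS1 and 19.6 in SKN, and VDR, the vitamin D receptor, 12.2 against 0.912 to 1.99 elsewhere. The sex steroid receptors ESR1 and PGR were at most 0.1 in all 4 lines. Immediate early factors were at least 2-fold above in 10 of 21 and below in none (median 0.77, but 1.19 without RKN and 0.49 without SKN), with MAFF at 54.9 against 3.19 to 22.8 elsewhere. The factor MYC was at 16.6 in SKUT1, 85 in RKN, 20.5 in SKLMS1 and 54.6 in SKN, the lowest of the lines.

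Metabolic genes differed by pathway. The 37 measured subunits of respiratory complex I held a difference under 2-fold throughout (median -0.28, with 6 below on the TPM scale), as did all but 2 of the 38 of complexes II to V (median -0.27, with 3 below on the TPM scale). COX7A1, the muscle isoform of a cytochrome oxidase subunit, was an exception, at 131 in SKUT1, 0.117 in SKLMS1 and listed at 0 in RKN and SKN. UQCRH was the other, because SKN was at 0.493, and it has a near-identical copy. Of 35 glycolysis genes 5 were above and 7 below (median -0.13, with 3 above on the TPM scale, 1 above without RKN and 4 below without SKN). LDHA was 1351 against 296 to 1026 elsewhere and LDHB 404 against 701 to 1721 elsewhere, so the 2 lactate dehydrogenase subunits lay on opposite sides. The regulators PFKFB3 (at 7.7 in SKUT1, 10.7 in RKN, 68.3 in SKLMS1 and 32.7 in SKN) and PFKFB4 (at 0.957 in SKUT1, 3.09 in RKN, 12.6 in SKLMS1 and 5.61 in SKN) were low, and the sugar transporter SLC2A8 was at 0.452 in SKUT1, 10.4 in RKN, 12 in SKLMS1 and 8.61 in SKN. Of 26 hypoxia response genes 11 were above and 3 below (median 0.38, but 0.054 without RKN, 0.99 without SKLMS1 and 0.63 without SKN). DDIT4, an inhibitor of mTOR signalling, was among the low ones, at 26.6 in SKUT1, 79.7 in RKN, 407 in SKLMS1 and 119 in SKN.

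Nucleotide synthesis was low. Of 39 measured genes of the pentose phosphate path and of purine and pyrimidine synthesis, 1 was at least 2-fold above and 14 below (median -0.65, with 4 above without SKLMS1). TYMS, thymidylate synthase, was at 49.6 in SKUT1, 282 in RKN, 139 in SKLMS1 and 161 in SKN. PAICS, of purine synthesis, was at 31.4 in SKUT1, 113 in RKN, 86.2 in SKLMS1 and 111 in SKN, and HPRT1, of purine salvage, 19.1 against 50.6 to 90.8 elsewhere. In folate metabolism the cytosolic SHMT1 was at 4.58 in SKUT1, 27.7 in RKN, 26.4 in SKLMS1 and 12.7 in SKN, whereas the mitochondrial enzymes ALDH1L2 (63.8 against 0.189 to 13 elsewhere) and MTHFD1L (84.6 against 18.3 to 37.4 elsewhere) were high. PSAT1, of serine synthesis, was 328 against 66.5 to 112 elsewhere, and ASNS, asparagine synthetase, 181 against 34.4 to 104 elsewhere. These are single members: the serine, glycine and folate list of 28 measured genes had 5 at least 2-fold above and 5 below (median 0.08). The glutamine, asparagine, proline and arginine list of 27 had 6 above and none below (median 0.21, with 3 below on the TPM scale). Amino acid transporters were more often high than low, 13 were at least 2-fold above and 1 below (median 0.75, but 0.49 over all 35 found), of 30 measured. SLC38A5 was at 58 in SKUT1, 0.15 in RKN, 0.0728 in SKLMS1 and 0.0883 in SKN, and SLC1A5, a glutamine transporter, 299 against 65.2 to 119.8 elsewhere.

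Single enzymes with wide gaps included QPRT, of NAD synthesis, at 1.42 in SKUT1, 65.4 in RKN, 275 in SKLMS1 and 24.6 in SKN. NNMT, which methylates nicotinamide, was at 269.8 in SKUT1, 0.108 in RKN, 158 in SKLMS1 and 18.2 in SKN, and BST1, a surface enzyme that consumes NAD, 155 against at most 1.67 elsewhere. UCP2, a mitochondrial carrier, was at 0.851 in SKUT1, 28.9 in RKN, 58.6 in SKLMS1 and 17.7 in SKN. CYP1B1, which oxidises steroids and xenobiotics, was at 378 in SKUT1, 0.724 in RKN, 14.3 in SKLMS1 and listed at 0 in SKN, and its regulator AHR 32 against 0.0637 to 8.81 elsewhere. Genes of cholesterol synthesis, fatty acid oxidation and the citrate cycle had medians of 0.12, 0.03 and 0.07.

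Antioxidant genes were at least 2-fold above in 17 of 47 and below in 2 (median 0.63, with 11 above without SKN). SOD3, the extracellular superoxide dismutase, was at 96.2 in SKUT1, 1.59 in RKN, 1.86 in SKLMS1 and 0.0893 in SKN. TXNRD1, thioredoxin reductase, was 538 against 72.8 to 112 elsewhere, and MGST1, a membrane glutathione transferase, 459.6 against 0.663 to 88.6 elsewhere. HMOX1, a classical target of the same pathway, was highest in SKLMS1, at 93.5 in SKUT1, 42.6 in RKN, 237 in SKLMS1 and 21.8 in SKN.

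Genes of the secretory route and of lysosomes were high. In the endoplasmic reticulum, 24 were at least 2-fold above and none below (median 1.18, with 15 above on the TPM scale), of 38 measured folding and stress genes. SKUT1 was the highest line in 31 of the 38, against 30.8% of all compared genes. SERPINH1, the collagen chaperone, was at 661 in SKUT1, 245 in RKN, 97.5 in SKLMS1 and 133 in SKN. HSP90B1, a general chaperone of that compartment, was at 1154 in SKUT1, 264 in RKN, 347 in SKLMS1 and 362 in SKN. DNAJB9, induced by unfolded proteins, was 32.8 against 4.26 to 7.1 elsewhere. Lysosomal genes were at least 2-fold above in 28 of 49 and below in 2 (median 1.13, with 4 below without RKN). CTSB, a cysteine protease, was at 785 in SKUT1, 56.3 in RKN, 164 in SKLMS1 and 162 in SKN, LAMP1, a membrane protein, 328 against 27.8 to 95.6 elsewhere, and ARSB, which removes sulphate from matrix glycosaminoglycans, 89.5 against 4.36 to 7.73 elsewhere.

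Chaperones outside the endoplasmic reticulum split by kind. Small heat shock proteins of muscle were very high. CRYAB was at 936 in SKUT1, 0.0612 in RKN, 15 in SKLMS1 and listed at 0 in SKN. HSPB7 was at 378 in SKUT1, 0.0221 in RKN, 0.0147 in SKN and listed at 0 in SKLMS1, HSPB6 at 512 in SKUT1, 0.26 in RKN, 1.55 in SKLMS1 and 0.565 in SKN and HSPB2, which neighbours CRYAB in the genome, at 64.4 in SKUT1, 0.102 in SKLMS1 and listed at 0 in RKN and SKN. Outside SKUT1 the highest level of these 4 genes was that of CRYAB in SKLMS1. The mitochondrial chaperonin HSPD1 and its partner HSPE1 were low, HSPD1 at 104 against 177 to 413 elsewhere and HSPE1 at 59.3 against 122 to 245 elsewhere. Over all 35 measured genes of the chaperone list 9 were above and 3 below (median -0.28, mean 0.88, with 11 below on the TPM scale).

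Cell division genes were low together. Dividing cells copy DNA in S phase and then express the kinases, motors and kinetochore proteins of mitosis. Of 58 measured genes of the spindle and mitosis, none was at least 2-fold above and 54 below (median -1.74). SKUT1 was the lowest line in all 58 (27.9% of all compared genes) and lay at least 4-fold below every other line in 15 (0.824% of all). As log2(FPKM + 1), the list had a median of 3.43 in SKUT1 and of 5.34 to 5.40 in the other lines. CDC20, which activates the anaphase-promoting complex, was at 18.4 in SKUT1, 223 in RKN, 169 in SKLMS1 and 149 in SKN. CCNB1, the mitotic cyclin, was at 21.1 in SKUT1, 165 in RKN, 186 in SKLMS1 and 182 in SKN. PLK1, a mitotic kinase, was at 12.3 in SKUT1, 116 in RKN, 75.5 in SKLMS1 and 58.9 in SKN, and CENPA, the centromere histone, 4.4 against 31.9 to 41.7 elsewhere. SKUT1 lay at least 4-fold below the lowest of the other lines in these 4 genes. MKI67, a marker of cycling cells, was at 7.87 in SKUT1, 28.6 in RKN, 27.1 in SKLMS1 and 21.8 in SKN. In bulk RNA fewer dividing cells and less RNA per cell cannot be told apart, and the labels do not give the density of the cultures at harvest.

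Genes of DNA synthesis were lower by less. Of 48 measured replication genes, none was at least 2-fold above and 26 below (median -1.14), and SKUT1 was the lowest line in 40 (27.9% of all compared genes). PCNA, the sliding clamp, was at 106 in SKUT1, 345 in RKN, 378 in SKLMS1 and 152 in SKN, and MCM7, of the helicase, 36 against 57.4 to 151 elsewhere. Of 31 homologous recombination and Fanconi genes, none was at least 2-fold above and 15 below (median -0.89), with XRCC3 at 2.2 in SKUT1, 18.8 in RKN, 11 in SKLMS1 and 9.84 in SKN. The mismatch repair gene MSH6 differed less, at 23.1 in SKUT1, 39.6 in RKN, 30.9 in SKLMS1 and 28.3 in SKN.

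**Figure D4:**
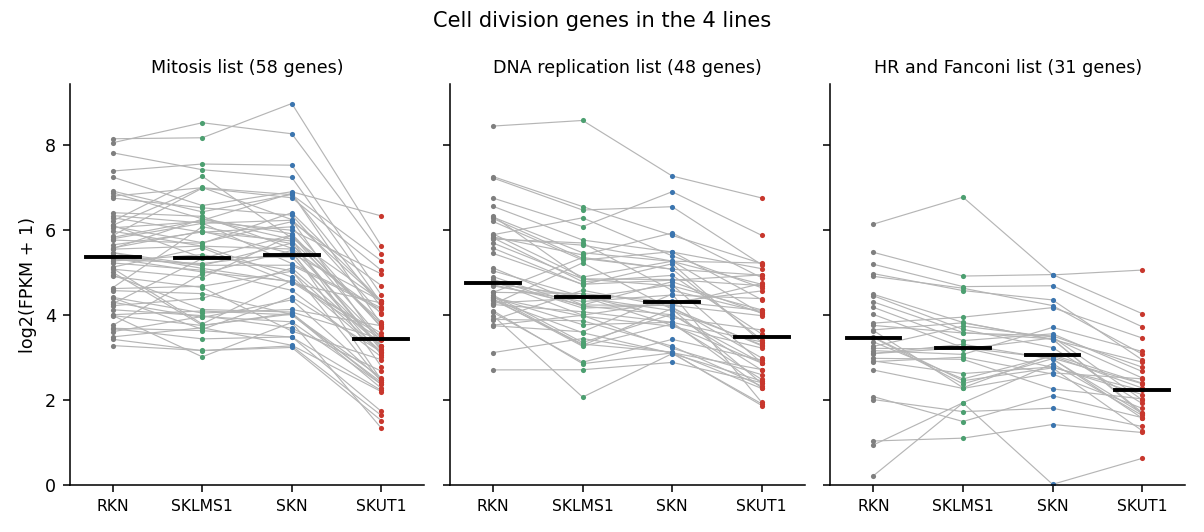
Level as log2(FPKM + 1) of every measured gene (grey line) in 3 lists of cell division genes across the 4 libraries, with black bars at the list medians. The medians of the mitosis list are 5.34 to 5.40 in RKN, SKLMS1 and SKN and 3.43 in SKUT1.

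Promoters of 4 of these genes are shown because they hold the letters of the CHR element (TTTGAA) and, in 3 of them, the CCAAT box (CCAAT) close to the start. Both elements are known from promoters of genes of late cell cycle phases. Each stretch holds 110 bases before and 20 after the RefSeq start in GRCh38.p14, 5′ to 3′ on the plus strand, with both kinds of letters in capitals: CDC20 at chr1:43358871-43359000, CCNB2 at chr15:59105036-59105165, PLK1 at chr16:23678779-23678908 and CENPA at chr2:26785946-26786075.
CDC20: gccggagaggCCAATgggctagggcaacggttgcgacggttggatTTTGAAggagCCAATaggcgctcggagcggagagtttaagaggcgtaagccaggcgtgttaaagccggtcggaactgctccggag
CCNB2: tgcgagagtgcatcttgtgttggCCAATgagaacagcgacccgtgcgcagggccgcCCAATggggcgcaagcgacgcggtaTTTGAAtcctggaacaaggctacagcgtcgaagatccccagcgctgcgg
PLK1: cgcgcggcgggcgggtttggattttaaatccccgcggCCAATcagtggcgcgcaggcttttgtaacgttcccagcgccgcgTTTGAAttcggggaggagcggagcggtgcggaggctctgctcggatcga
CENPA: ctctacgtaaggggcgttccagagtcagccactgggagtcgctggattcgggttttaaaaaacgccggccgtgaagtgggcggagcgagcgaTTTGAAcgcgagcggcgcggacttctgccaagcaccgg
The CHR letters nearest the start begin 65 bases before it in CDC20, 29 in CCNB2, 29 in PLK1 and 18 in CENPA. On both strands of the windows of 300 bases, TTTGAA occurred in 66.7% of the 54 windows of the mitosis list (48 of 58 genes matched), against 10.5% of windows of the compared genes and 15.2% of all windows. CCAAT occurred in 70.4% of the mitosis windows, 34.4% of those of the compared genes and 34.6% of all. It was also frequent in other lists, at 65.2% of the windows of the endoplasmic reticulum list, whose genes were high in SKUT1. In the 53 windows of the replication list TTTGAA was found in 3.77% and CCAAT in 56.6%, while the E2F letters TTTGGCGC were found in 17.0%, against 0.984% of windows of the compared genes. The list members were picked as known cell cycle genes, and letters do not show which factor is bound.

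Regulators of the cycle were unequal. Of 27 cyclins, kinases and activating E2F factors, 2 were at least 2-fold above and 15 below (median -1.14). MYBL2, a factor of late cycle genes, was at 9.61 in SKUT1, 57.5 in RKN, 151 in SKLMS1 and 98.3 in SKN. CCNB2 was at 15.2 in SKUT1, 106 in RKN, 90.5 in SKLMS1 and 80.3 in SKN. CCND1, the cyclin of G1 phase, was the reverse, at 537 in SKUT1, 39.8 in RKN, 31.9 in SKLMS1 and 111 in SKN, and CDK6 was at 13.7 in SKUT1, 0.164 in RKN, 14.2 in SKLMS1 and 12.1 in SKN. Besides CDKN1A, the other inhibitors did not stand together: CDKN1B was at 18.4 in SKUT1, 20.9 in RKN, 28.5 in SKLMS1 and 10.8 in SKN, CDKN1C at 0.184 in SKUT1, 2.33 in RKN, 4.6 in SKLMS1 and 24.3 in SKN and CDKN2A at 16.4 in SKUT1, 326 in RKN, 0.549 in SKLMS1 and 0.125 in SKN. RB1 was at 18.8 in SKUT1, 0.752 in RKN, 11.7 in SKLMS1 and 15.2 in SKN, low in RKN and not in SKUT1.

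Single genes of growth arrest and cell death were also read, and no list tally is given for them. PHLDA3, an inhibitor of AKT, was 75.9 against 4.48 to 22.3 elsewhere and ZMAT3 15.4 against 1.47 to 2.75 elsewhere, while MDM2 was at 14.1 in SKUT1, 14.5 in RKN, 6.68 in SKLMS1 and 7.14 in SKN, BAX at 101 in SKUT1, 56.8 in RKN, 74.8 in SKLMS1 and 76.8 in SKN and PLK2 at 7.12 in SKUT1, 158 in RKN, 331 in SKLMS1 and 72.3 in SKN. TNFRSF10A, a death receptor, was low too, at 0.238 in SKUT1, 8.56 in RKN, 4.79 in SKLMS1 and 5.4 in SKN.

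RNA and ribosome genes were lower by a small margin. Of 41 splicing factors, 4 were at least 2-fold above and 14 below (median -0.77, with 2 above without RKN), with HNRNPH1 at 64 against 146 to 263 elsewhere and SNRPB at 142 against 397 to 505 elsewhere; the muscle-related MBNL1 was the reverse, at 80.0 against 16.8 to 29.6 elsewhere. Of 43 ribosome biogenesis genes, none was at least 2-fold above and 6 below (median -0.54, but -0.24 without RKN, with 14 below on the TPM scale, 3 below without RKN and 12 below without SKLMS1), a share near that of all genes, with FBL at 58.4 against 116 to 284 elsewhere. Cytosolic ribosomal protein genes held 8.15% of the summed FPKM in SKUT1, where 4 of them were listed at 0, and 13.6 to 19.2% in the other lines. The sum of all genes was largest in SKUT1, and these genes summed to 50489 in SKUT1 and 60982 to 103134 elsewhere. At least 2-fold below were 9 of 75, and 1 was above (median -0.53, with 25 below on the TPM scale and 5 below without SKN). The share at least 2-fold below was near the 13.1% of all compared genes, but SKUT1 was the lowest line in 53 of the 75, against 27.9% of all. Many ribosomal protein genes have processed copies that share reads, so single members are uncertain. Proteasome subunits had a median of -0.11. Chromatin enzymes were below in 10 of 34 (17 on the TPM scale) and above in 1, with EZH2, of the Polycomb complex, at 5.28 in SKUT1, 38.4 in RKN, 18.7 in SKLMS1 and 17.7 in SKN and CBX2 at 0.101 in SKUT1, 16.7 in RKN, 7.37 in SKLMS1 and 4.01 in SKN.

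The remaining genes far below every other line belong to no single kind. TNNT1, a slow skeletal troponin, was at 2.63 in SKUT1, 93.8 in RKN, 99.4 in SKLMS1 and 116 in SKN. ANXA3, a calcium-dependent membrane-binding protein, was at 0.376 in SKUT1, 30.3 in RKN, 51.3 in SKLMS1 and 82.9 in SKN, and CDCA7, a MYC-responsive factor, 0.224 in SKUT1, 37.1 in RKN, 21.7 in SKLMS1 and 17.5 in SKN. The gap to the lowest of the other lines was wide in each. S100A2, a calcium-binding protein, was at 3.89 in SKUT1, 43.8 in RKN, 318 in SKLMS1 and 303 in SKN. IGF2BP3, an RNA-binding protein of fetal tissue, was at 0.0929 in SKUT1, 12.8 in RKN, 13.1 in SKLMS1 and 39.4 in SKN, CD70, a ligand of the tumour necrosis factor family, at 0.0578 in SKUT1, 12.1 in RKN, 202 in SKLMS1 and 19.7 in SKN and MARCKSL1 at 7.16 in SKUT1, 313 in RKN, 95.4 in SKLMS1 and 158 in SKN. RPS6KA1, a kinase downstream of ERK, was at 0.534 in SKUT1, 21 in RKN, 10.8 in SKLMS1 and 13.9 in SKN, NETO2 at 1.25 in SKUT1, 16.1 in RKN, 42.2 in SKLMS1 and 32.1 in SKN and SEZ6L2 at 1.01 in SKUT1, 24 in RKN, 23.1 in SKLMS1 and 14.7 in SKN. In each of these the other 3 lines had values and SKUT1 lay at least 4-fold below the lowest of them.

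Likewise, several genes far above every other line fall outside the matrix and fibroblast lists. SCUBE3, a secreted protein with EGF-like domains, was 514 against at most 0.0925 elsewhere. TNFRSF11B, osteoprotegerin, a decoy receptor in bone turnover, was at 812 in SKUT1, 3.86 in RKN, 1.59 in SKLMS1 and 0.883 in SKN. PENK, the enkephalin precursor, was at 129 in SKUT1 and listed at 0 in RKN, SKLMS1 and SKN. The other lines were all low for these 3 genes. SERPINB2, an inhibitor of plasminogen activators, was at 198 in SKUT1, 0.0174 in RKN, 0.0462 in SKN and listed at 0 in SKLMS1. KIAA1199, which takes part in hyaluronan breakdown, was 428 against 0.0801 to 3.19 elsewhere. CLEC3B (tetranectin) was 243 against at most 0.061 elsewhere, SCRG1 232 against at most 0.0565 elsewhere and MEDAG 233 against at most 0.0891 elsewhere. Each of these 8 genes was at most 3.86 in the other 3 lines and at least 129 in SKUT1.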

How the data were processed

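Poly(A) RNA of 4 leiomyosarcoma lines was sequenced, 1 library per line, with the TruSeq Stranded mRNA kit and single-end Illumina reads, per the labels' protocols. STAR and Cufflinks (no versions) and the build hg19 are named in the submitters' processing notes. The authors deposited FPKM values per gene symbol in 1 table. The gene annotation and strand setting are not known from these sources. Of 23610 rows, 28 had a date number in place of a symbol and 5 held spreadsheet errors. They were left out.

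From these values, differences were computed as log2(FPKM + 1) with pandas 2.3.3 and numpy 2.4.6 for genes whose largest FPKM over the lines was 1 or more. With 1 library per line no test was possible. The 78 gene lists (2622 of 2627 names found), the markers and the rules were chosen with earlier results of these data known. Named genes were the 4 markers, the 25 with the widest gap above every other line (FPKM at least 10 in SKUT1, matrix, fibroblast and skeletal tissue lists left out), the 25 with the widest gap below (at least 5 in each other line) and up to 5 per list with the largest difference. A few genes these rules name are not reported here. Further members, among them those given to show levels that differ little, were chosen after their values were seen. Motifs were searched in RefSeq windows of GRCh38.p14 matched by symbol, counting every window of a gene. The calculation was run on simulated lines with large shifts planted in highly expressed genes. That checks the arithmetic only and not how low values or zeros behave. Alternatives were other pseudocounts (0.1 and 5), scalings, filters and folds, and leaving out each comparison line.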

Additional observations from a re-analysis of the deposited data

How the results depend on the processing

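The count of genes at least 4-fold above every other line was 557, and became 305 with a pseudocount of 5 and 270 at 8-fold. Below every other line there were 113 genes, against 372 with a pseudocount of 0.1, 44 with a pseudocount of 5, 227 on the TPM scale, 44 at 8-fold and 187 to 220 with 1 comparison line left out. The 2454 genes at least 2-fold above the mean became 1543 with a pseudocount of 5 and 985 at 4-fold, and the 1791 below became 2763 with a pseudocount of 0.1, 774 with a pseudocount of 5, 3140 on the TPM scale and 398 at 4-fold. Genes at least 2-fold above made up 57.8% of both directions, 39.6% on the TPM scale. Of 218 named genes with a difference of 1 or more in size, 4 changed sign under some alternative. AXIN2 ran from -2.35 to 0.21, CDKN2A from -0.37 to 3.72 and RGS5 from -2.17 to 0.90 as comparison lines were left out. UQCRH ran from -1.05 to 2.93. Against the median of the other lines UQCRH was -0.89 and RGS5 0.50. The median of the secreted WNT antagonists was -0.025 without a filter on low values, and other list medians that the filter moves are given beside their counts. Relative to the median of all genes, 27 of the 78 list medians changed sign or reached 0 under some alternative. The receptor tyrosine kinase median ran from -0.14 to 0.79 and the Notch median from -0.80 to 0.07. Among the 23 lists with a median of 1 or more in size, 2 changed sign or reached 0. The cause of these moves was not tested. With 1 library per line the spread between cultures is unknown, and low values carry counting error of unknown size. No paired analysis was possible because each line has 1 library and no result comes from a test.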
